A study of Drosophila melanogaster with 9 samples.

Results

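The basement membrane is the thin sheet of extracellular matrix that lines muscles, gut, fat body, nerves and imaginal discs in the fly larva. It is built from a network of type IV collagen and a network of laminin trimers, joined by nidogen and perlecan, and it is cut and remodelled by matrix metalloproteinases. In Drosophila larvae the fat body and the blood cells are known sources of much of its collagen IV, which travels in the haemolymph to other tissues. The genes described here were taken by name and number 10 of the 15809 loci in the table. They are Cg25C and vkg (both collagen IV chains), LanA, LanB1 and LanB2 (laminin chains), Ndg (nidogen), trol (perlecan), SPARC (a collagen-binding matrix protein, named BM-40-SPARC in the table), Mmp2 (a matrix metalloproteinase) and Timp (the fly's metalloproteinase inhibitor). All 10 were found and all 10 were expressed above the limit for testing.

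RNA was read from whole larvae of the last larval stage, collected while wandering and grown on standard food. There were 3 libraries of each of 3 genotypes: Atg6-/- larvae with 2 mutant copies of Atg6 (allele Atg6D, here homozygotes), Atg6-/+ larvae with 1 mutant copy (heterozygotes), and larvae wild type for Atg6. All carried the w118 background. The gene encodes the Drosophila Beclin protein, which works with the lipid kinase Vps34 in autophagy and in endosomal traffic. The labels do not say how many larvae were pooled in a library, their sex, or whether the libraries came from separate cultures, so the p-values cover only the variation among the libraries at hand, which may be technical.

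Levels are FPKM (fragments scaled to transcript length and to library size), which allows levels of different genes to be compared. Median-of-ratios factors (the median ratio of a library's levels to each locus's geometric mean) ran from 0.989 to 1.01. Typical levels were thus already matched between the libraries. The measure of library size behind these values was not established here. Absolute depth is unknown from FPKM; by the spacing of low values, the other libraries were at an estimated 0.785 to 1.27 times the depth of wild type 1. Each change is a log2 ratio of FPKM + 1, given with its standard error (SE), from limma fitted to 10887 loci in all 9 libraries, with Benjamini-Hochberg adjustment over those loci and a threshold of 0.05. The added 1 shrinks the changes of weakly expressed genes. Atg6 itself was at 0.0270, 0 and 0.0563 FPKM in the homozygotes, at 7.58, 7.98 and 8.89 in the heterozygotes, against 16.1, 14.3 and 17.0 in the wild types, as the labels state.

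In larvae without a working Atg6 copy, 4 of the 10 genes rose against the wild type and 0 fell. The rises were Ndg (3.01-fold by mean FPKM), Timp (2.27-fold), SPARC (1.57-fold) and LanB2 (1.27-fold). Over all tested loci 12.3% rose. The collagen IV chains, perlecan and LanB1 did not pass the test and their libraries overlapped between genotypes. The median log2 fold change of the 10 genes was 0.31, against 0.01 for all tested loci. That median depends on the normalization: after quantile normalization the changes of Cg25C, LanA, LanB1 and trol turned negative. The 10 genes were also chosen with earlier results of these data known. In either direction 22.0% of tested loci passed, and 9.67% fell. At an unadjusted p under 0.05, 5 of the 10 genes passed, against 41.1% of tested loci, so that count is near the background. In 6 of the 10 genes every homozygote library lay above every wild type library, a pattern shown by 19.5% of the tested loci, and in 0 did every homozygote lie below (20.5% of the tested loci). Only Timp kept its call in each of the 18 alternative settings run, and the limits of the others are given with each gene. Some settings, such as median-of-ratios scaling and keeping the repeated lines, change the fitted values little or not at all. In whole larvae, a change in the number of cells of a type and a change in RNA per cell cannot be told apart.

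**Figure D1:**
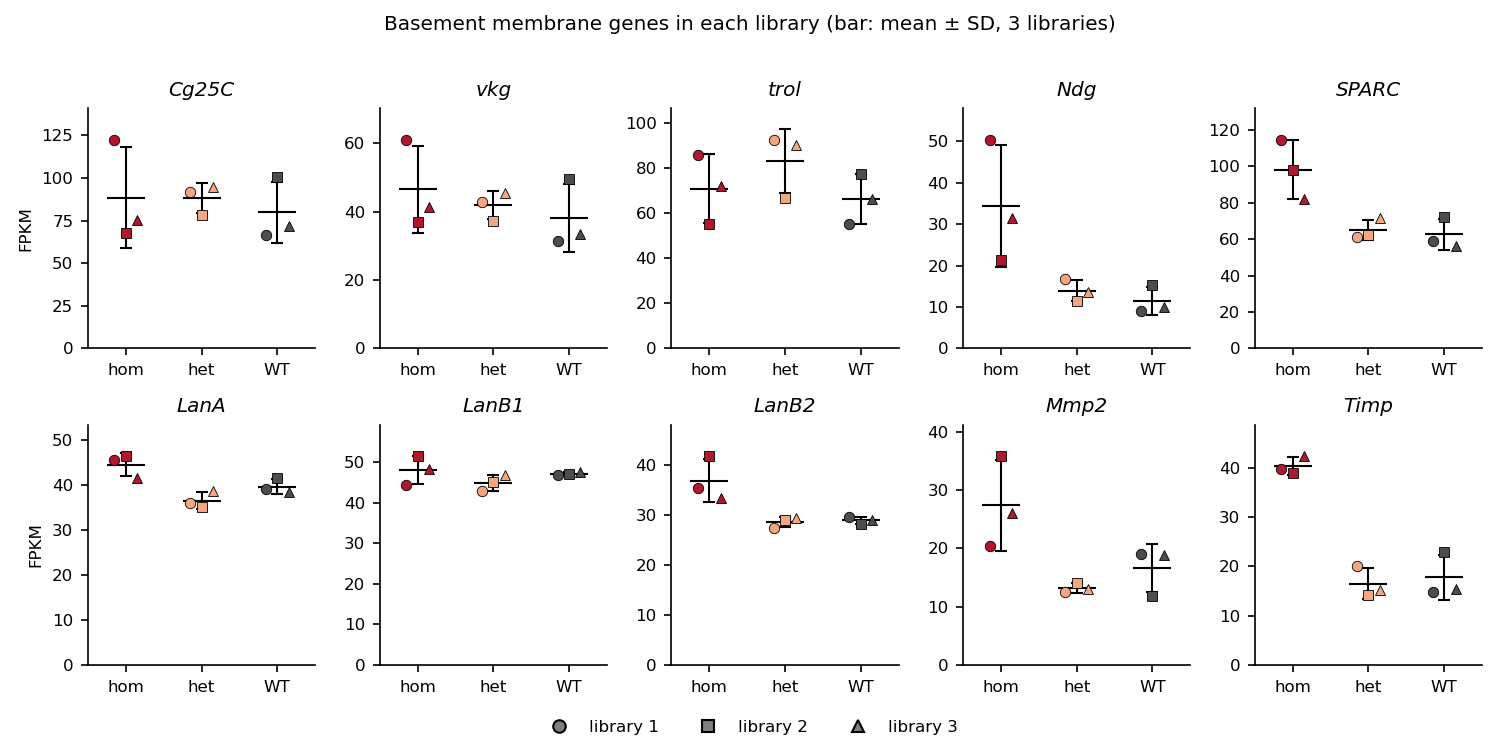
FPKM of the 10 genes in each library, with homozygotes (hom), heterozygotes (het) and wild types (WT) from left to right; symbols are the 3 libraries of a genotype and the bars give mean ± SD. The homozygote points lie above all the others for Ndg, SPARC, LanA, LanB2, Mmp2 and Timp, and are mixed with the others for Cg25C, vkg, trol and LanB1.

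The collagen IV chains did not pass the test in any comparison. Cg25C (current symbol Col4a1, chromosome 2L, 5029609 to 5037279, plus strand, in the BDGP6 annotation of Ensembl, the build also called dm6) encodes the alpha 1 chain. Its level was 122.4, 67.6 and 75.5 FPKM in the homozygotes, 91.7, 78.1 and 94.7 in the heterozygotes, against 66.7, 100.5 and 72.1 in the wild types. Homozygote 1 was the highest of all 9 libraries, and homozygotes 2 and 3 lay within the range of the wild types. The log2 fold change of homozygote against wild type was 0.12 (SE 0.24, limma adjusted p = 0.729), with a 95% interval from −0.44 to 0.68. Without homozygote 1 it was −0.13, and after quantile normalization −0.11, so no direction can be given.

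The gene for the alpha 2 chain, vkg, lies head to head with Cg25C on the minus strand (2L, 5012144 to 5028191), with 1417 bases between their annotated starts. It was at 60.97, 37.1 and 41.4 FPKM in the homozygotes, 42.9, 37.3 and 45.3 in the heterozygotes, against 31.4, 49.4 and 33.3 in the wild types. The pattern over the libraries was that of Cg25C, with homozygote 1 and wild type 2 highest in their genotypes. Its change in the homozygotes was 0.28 (SE 0.23, limma adjusted p = 0.381, 95% interval −0.24 to 0.80). It was 0.0708 without homozygote 1, 0.48 without wild type 2 and 0.12 after quantile normalization.

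The FPKM ratio of Cg25C to vkg was 2.01, 1.82 and 1.82 in the homozygotes, 2.136, 2.097 and 2.091 in the heterozygotes, against 2.13, 2.03 and 2.16 in the wild types. Although the level of each gene varied widely within genotypes, each homozygote had a lower ratio than every other library. On the log2 scale the ratio in homozygotes differed from that in wild types by −0.16 (two-sided exact permutation test, p = 0.1, the smallest that 3 against 3 libraries allow; 0.24 adjusted over 12 ratio tests). Against the heterozygotes the difference was −0.16 as well, with the same exact p of 0.1 (adjusted 0.24).

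**Figure D2:**
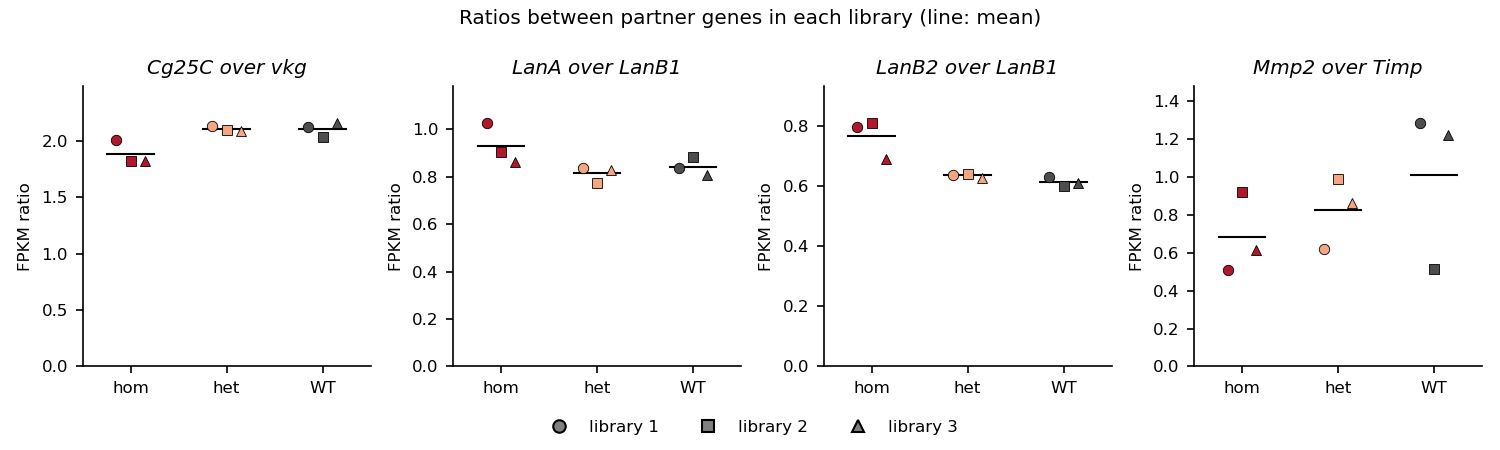
FPKM ratios between partner genes in each library for homozygotes (hom), heterozygotes (het) and wild types (WT); symbols are libraries and lines are means. The Cg25C to vkg ratio lies between 1.82 and 2.01 in homozygotes and between 2.03 and 2.16 in wild types, and the LanB2 to LanB1 ratio between 0.693 and 0.813 in homozygotes and between 0.602 and 0.633 in wild types.

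Laminins are trimers of an alpha, a beta and a gamma chain, and of LanA, LanB1 and LanB2 only LanB2 passed the test against the wild type, which does not show that the chains differ. LanB2, the gamma chain gene (3L, 9614914 to 9623980, plus strand), was at 35.4, 41.8 and 33.5 FPKM in the homozygotes, 27.4, 29.0 and 29.4 in the heterozygotes, against 29.6, 28.3 and 29.0 in the wild types. All homozygotes were above all other libraries, while heterozygotes and wild types overlapped. LanB2 rose in the homozygotes by 0.33 (SE 0.09, limma adjusted p = 0.0420). This call is at the edge: it was lost without any one library other than homozygote 2 (adjusted p = 0.0519 to 0.104), after quantile normalization (0.238) and with only the 2 genotypes fitted (0.108).

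LanB1, the beta chain gene (2L, 7811438 to 7820771, plus strand), was the most even of the 10 genes. It was at 44.4, 51.4 and 48.3 FPKM in the homozygotes, 42.9, 45.2 and 46.7 in the heterozygotes, against 46.8, 47.0 and 47.5 in the wild types. Its change in the homozygotes was 0.03 (SE 0.08, limma adjusted p = 0.829), with a 95% interval from −0.16 to 0.21. Homozygotes overlapped the wild types, and the heterozygotes lay just below the wild types.

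LanA, one of the fly's alpha chain genes (3L, 6203831 to 6218022, minus strand), was at 45.7, 46.4 and 41.7 FPKM in the homozygotes, 35.9, 35.0 and 38.7 in the heterozygotes, against 39.2, 41.5 and 38.4 in the wild types. The homozygotes were above the other libraries by a narrow margin and the change did not pass the test (0.16, SE 0.08, limma adjusted p = 0.159); after quantile normalization it was −0.0038. Set against LanB1, the FPKM ratio of LanB2 was 0.798, 0.813 and 0.693 in the homozygotes, 0.639, 0.643 and 0.629 in the heterozygotes, against 0.633, 0.602 and 0.610 in the wild types. The log2 ratio was higher by 0.31 in homozygotes than in wild types, with no overlap (two-sided exact permutation p = 0.1, adjusted 0.24). For LanA over LanB1 the difference was 0.14, with overlap (exact permutation p = 0.2, adjusted 0.343). Against the heterozygotes neither ratio overlapped. The homozygotes were higher by 0.26 for LanB2 over LanB1 and by 0.19 for LanA over LanB1 (exact permutation p = 0.1, adjusted 0.24, for each).

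Nidogen links the laminin and collagen networks, and its gene, Ndg, rose. The gene (2R, 10313891 to 10322104, plus strand) was at 50.3, 21.2 and 31.5 FPKM in the homozygotes, 16.6, 11.5 and 13.7 in the heterozygotes, against 9.08, 15.2 and 9.98 in the wild types. Every homozygote was above every other library, but the homozygotes differed among themselves by more than 2-fold. Ndg rose by 1.46 (SE 0.32, limma adjusted p = 0.0199, 95% interval 0.73 to 2.19). The call was lost without homozygote 3 (adjusted p = 0.0624), wild type 1 (0.0651) or wild type 3 (0.0734) and with only the 2 genotypes fitted (0.0680). An annotated gene on the other strand, CG34222, overlaps Ndg; it was at 1.36 to 3.02 FPKM in the homozygotes and 2.92 to 11.9 in the wild types, and whether the authors counted by strand is not given in the sources used here.

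Perlecan, the large heparan sulphate proteoglycan encoded by trol, did not pass the test in any comparison. The gene (X, 2470460 to 2545427, minus strand) shares its locus in the table with mir-4955, from which its value cannot be separated. It was at 85.7, 55.0 and 72.0 FPKM in the homozygotes, 92.6, 67.0 and 90.2 in the heterozygotes, against 55.3, 77.6 and 66.3 in the wild types. The 3 genotypes overlapped, and the heterozygotes had the highest mean (83.3 ± 14.2 FPKM, SD, n = 3). Homozygotes differed from wild types by 0.08 (SE 0.21, limma adjusted p = 0.779, 95% interval −0.39 to 0.56), and the sign turned without homozygote 1 (−0.06) or wild type 1 (−0.04) and after quantile normalization (−0.15).

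SPARC, which binds collagen IV and in Drosophila is needed for its proper assembly in basement membranes, rose. The gene (3R, 26869238 to 26871995, minus strand) was at 114.6, 97.8 and 82.3 FPKM in the homozygotes, 61.5, 62.3 and 71.5 in the heterozygotes, against 59.2, 72.4 and 56.2 in the wild types. All homozygotes were above all other libraries, and in the homozygotes SPARC had the highest mean of the 10 genes. The rise was 0.64 (SE 0.15, limma adjusted p = 0.0260). Without wild type 1 the adjusted p was 0.0777, without wild type 3 it was 0.0875, with only the 2 genotypes fitted 0.0815 and after quantile normalization 0.0693. SPARC lies on the same chromosome arm as Atg6, 2.82 Mb away; for SPARC, and for Timp at 13.8 Mb, a linked difference between the chromosomes and the loss of Atg6 cannot be told apart.

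The metalloproteinase and its inhibitor were both higher in homozygotes. Mmp2 (2R, 9611139 to 9683858, minus strand), which cleaves matrix proteins and is anchored to the cell surface, was at 20.4, 35.8 and 26.0 FPKM in the homozygotes, 12.5, 14.1 and 13.0 in the heterozygotes, against 19.0, 11.9 and 18.9 in the wild types. Homozygotes lay above the wild types, but homozygote 1 by little. The difference did not pass the test against the wild type (0.68, SE 0.23, limma adjusted p = 0.0665), whereas it did without homozygote 1 (0.87, adjusted p = 0.0407). Against the heterozygotes, which were tightly grouped, Mmp2 rose by 0.96 (SE 0.23, adjusted p = 0.0464). That call was lost without homozygote 2 or 3, any heterozygote, wild type 1 or wild type 3 (adjusted p up to 0.146).

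Timp showed the most even rise. The gene lies inside the span of Syn, on the opposite strand (3R, 10203875 to 10213007, minus strand), and 1 of its exons overlaps a Syn exon. The table gives the Timp locus the wider coordinates of Syn, and which exons stand behind its FPKM is not given in the sources used here. It was at 39.9, 38.9 and 42.3 FPKM in the homozygotes, 20.1, 14.3 and 15.1 in the heterozygotes, against 14.8, 23.0 and 15.5 in the wild types. The homozygotes stood within a narrow band far above all other libraries, and the heterozygotes overlapped the wild types. The log2 fold change was 1.17 against the wild type (SE 0.18, limma adjusted p = 0.00594) and 1.26 against the heterozygote (SE 0.18, adjusted p = 0.0065), and both calls held without each of the 9 libraries. Syn was at 1.96 to 2.39 FPKM in the homozygotes and 2.24 to 3.00 in the wild types (−0.20, limma adjusted p = 0.249).

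The Mmp2 to Timp ratio varied widely among the wild types. It was 0.511, 0.920 and 0.614 in the homozygotes, 0.620, 0.989 and 0.862 in the heterozygotes, against 1.29, 0.516 and 1.22 in the wild types. The lowest homozygote and the lowest wild type were nearly equal, and the log2 ratio differed between those genotypes by −0.48 (two-sided exact permutation p = 0.3, adjusted 0.45). That difference was −0.266 without wild type 1 and −0.887 without wild type 2. Mmp1, the other matrix metalloproteinase of the fly and not one of the 10 genes, was at 62.9, 89.2 and 56.2 FPKM in the homozygotes, 24.9, 25.7 and 23.4 in the heterozygotes, against 37.6, 25.2 and 30.2 in the wild types. It rose against the wild type by 1.13 (SE 0.19, limma adjusted p = 0.00841) and against the heterozygote by 1.43 (adjusted p = 0.00446). Mmp1 and Mmp2 shared their highest library, homozygote 2, and in both wild type 2 was the lowest wild type.

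**Figure D3:**
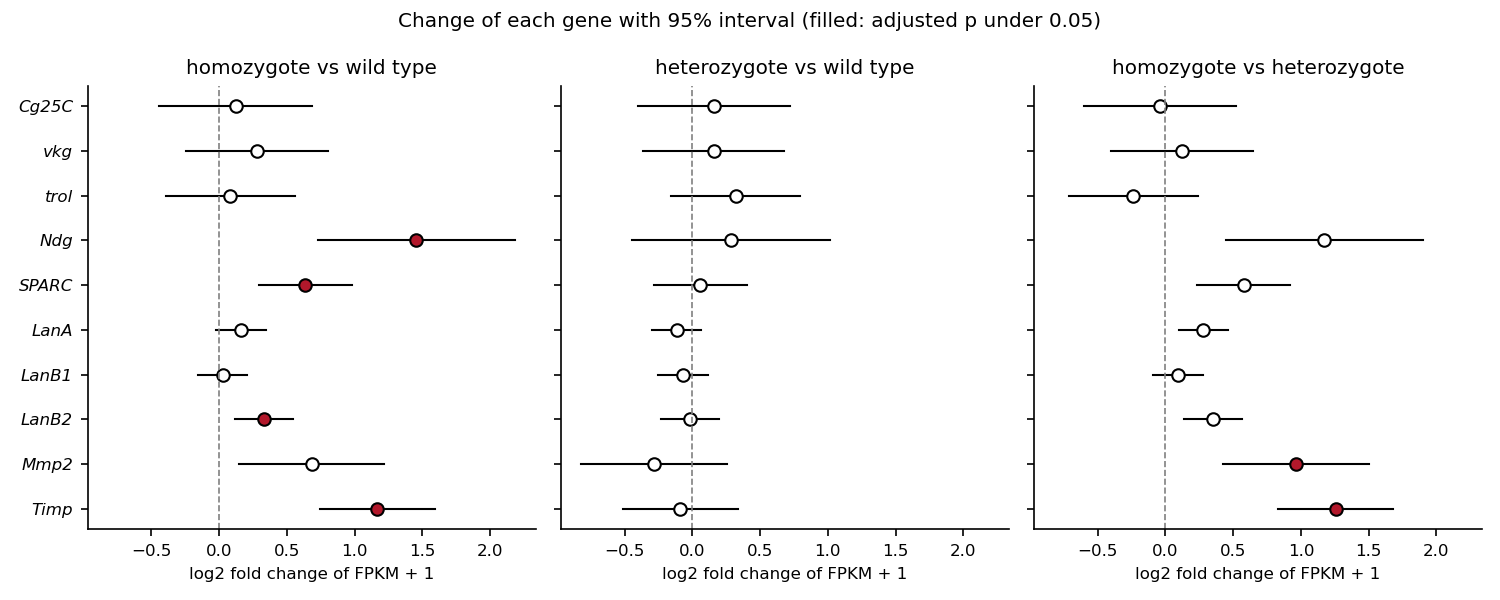
Log2 fold change of FPKM + 1 of each gene with its 95% interval in the 3 comparisons; filled points have a limma adjusted p under 0.05. Ndg, SPARC, LanB2 and Timp are filled for homozygote against wild type, none for heterozygote against wild type, and Mmp2 and Timp for homozygote against heterozygote.

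With 1 mutant copy, none of the 10 genes changed against the wild type in limma (0 with an adjusted p under 0.05, 0 at an unadjusted p under 0.05), where 0.211% of the tested loci were called and 5.71% had an unadjusted p under 0.05. Log2 fold changes ran from −0.28 for Mmp2 to 0.32 for trol, with 5 of the 10 above 0. The 95% intervals bound what could have been missed: −0.51 to 0.34 for Timp, −0.45 to 1.01 for Ndg and −0.28 to 0.41 for SPARC. LanB1 was the only one of the 10 whose heterozygote libraries all lay below the wild types, by 0.07 on the log2 scale (adjusted p = 0.842), a pattern shown by 6.18% of the tested loci; none lay wholly above (8.25%). Among all tested loci 0.147% rose and 0.0643% fell.

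Between homozygotes and heterozygotes 2 of the 10 genes, Timp and Mmp2, rose and 0 fell, where 6.27% of the tested loci rose, 1.42% fell and 7.70% passed in either direction. At an unadjusted p under 0.05, 6 of the 10 passed, against 26.2% of tested loci. In 6 genes (SPARC, LanA, LanB2, Ndg, Mmp2 and Timp) every homozygote was above every heterozygote, as in 17.5% of the tested loci, and in 0 genes every homozygote was below (15.6%). The changes of SPARC (0.58, SE 0.15, limma adjusted p = 0.0585), LanB2 (0.35, SE 0.09, adjusted p = 0.0624), Ndg (1.17, SE 0.32, adjusted p = 0.0660) and LanA (0.28, SE 0.08, adjusted p = 0.0769) did not pass. LanB2 passed with a filter at 5 FPKM (0.0477) and Ndg without homozygote 2 (0.0288). This comparison and that with the wild type share the homozygote libraries.

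Ordered by mean FPKM, Cg25C (79.8), trol (66.4) and SPARC (62.6) led in the wild types and their libraries overlapped. LanB1 (47.1) stood apart from both neighbours in that order, followed by LanA (39.7) and vkg (38.1), which overlapped, then LanB2 (29.0). Timp (17.8), Mmp2 (16.6) and Ndg (11.4) came last and overlapped. In the homozygotes the order began with SPARC (98.2), Cg25C (88.5) and trol (70.9) and ended with LanB2 (36.9), Ndg (34.4) and Mmp2 (27.4), and the only gap without overlap was that between trol and LanB1 (48.0). In the heterozygotes Cg25C (88.2) and trol (83.3) led and Ndg (13.9) and Mmp2 (13.2) came last.

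The spread within genotypes was not the same for all 10 genes. Within the homozygotes Cg25C, vkg, Ndg and trol were highest in library 1, then 3, then 2, as was the summed level of 12 muscle markers (30100, 10880 and 25320 FPKM in homozygotes 1, 2 and 3). The heterozygote sums were 22660, 15000 and 14720 FPKM, and the order of these genes differed from it: Ndg and trol ran 1, 3, 2, and Cg25C and vkg ran 3, 1, 2. Within the wild types Cg25C, vkg, Ndg and trol were highest in library 2, then 3, then 1, as was the muscle sum (7625, 19530 and 9001 FPKM in wild types 1, 2 and 3). The homozygote and wild type orders were not particular to muscle. The FPKM sum over all loci followed them, at 1.073e+06, 7.791e+05 and 9.902e+05 in homozygotes 1, 2 and 3. In wild types 1, 2 and 3 it was 7.547e+05, 1.038e+06 and 8.365e+05. The fat body markers Lsp1alpha, apolpp and Fbp2 (locus shared with CG42847) also followed them, while Lsp1beta, Lsp2 and Fbp1 did not in the homozygotes. LanA, SPARC and Timp were also highest in wild type 2, while Mmp2 was lowest there. None of the 12 muscle markers passed in the homozygotes (median log2 fold change 0.89); the most abundant, Act57B, on a locus shared with snoRNA:660, differed by 0.91 (SE 0.54, limma adjusted p = 0.238). The part of muscle content, or of the FPKM sum of a library, in these results was not tested.

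**Figure D4:**
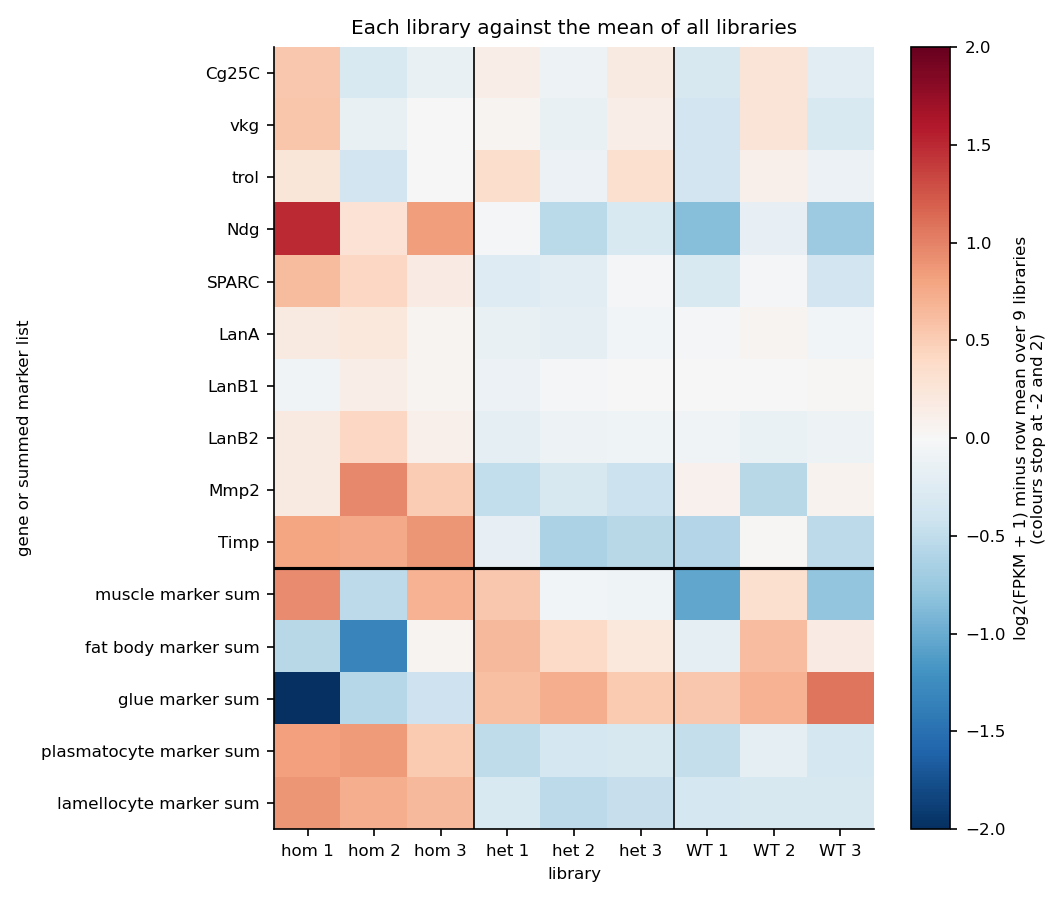
Heat map of log2(FPKM + 1) minus the row mean over the 9 libraries, for the 10 genes (top) and for summed marker lists (bottom), with homozygotes (hom), heterozygotes (het) and wild types (WT) from left to right. Homozygote 1 is high for Cg25C, vkg and Ndg and has the lowest glue marker sum (4090 FPKM). Mmp2 is highest in homozygote 2, the homozygote with the lowest muscle and fat body marker sums and the lowest FPKM sum over all loci.

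Beside the lists that follow, 12.3% of all tested loci rose in the homozygotes and 9.67% fell. Of 10 plasmatocyte markers (the main larval blood cell) 5 rose in the homozygotes and 0 fell, and their summed level was 665 to 835 FPKM in homozygotes, 323 to 369 in heterozygotes and 330 to 404 in wild types. Of 7 lamellocyte markers 5 rose and 0 fell, with sums of 1045 to 1225 FPKM in homozygotes, 463 to 536 in heterozygotes and 518 to 533 in wild types. He (hemese), a blood cell surface protein, rose by 1.93 (SE 0.17, limma adjusted p = 0.000574), and the scavenger receptor Sr-CI by 2.28 (SE 0.25, adjusted p = 0.00125). The plasmatocyte markers did not all go one way: eater, a phagocytosis receptor gene, was at 3.57, 9.93 and 5.13 FPKM in homozygotes and 11.2, 11.9 and 12.6 in wild types, with no overlap (−0.94, SE 0.29, adjusted p = 0.0516), and crq and the loci of srp (shared with CR44133) and ush (shared with MED15) also had negative values that did not pass. NimB5, a plasmatocyte marker, rose by 1.03 (SE 0.14, adjusted p = 0.00332), and the lamellocyte marker mthl4, on a locus shared with EDTP and mthl3, by 1.47 (SE 0.13, adjusted p = 0.000503). Of 7 fat body markers 6 were tested, 0 rose and 1, Fbp1, fell (−4.44, SE 1.33, adjusted p = 0.0496). The Fbp1 call was lost without any one heterozygote or wild type (adjusted p up to 0.117), with pseudocount 5, no filter, quantile normalization or only the 2 genotypes fitted (up to 0.115). The log2 fold change of Fbp1 was −2.60 without homozygote 1. Fat body sums were 13120 to 34020 FPKM in homozygotes and 29070 to 50200 in wild types. They include Lsp1beta, listed at 0 in homozygote 1 and heterozygote 3, and Lsp1gamma, listed at 0 in every library; for genes this abundant in larvae a listed 0 can be a failed estimate. The 7 salivary glue markers, which the gland makes late in this stage, summed to 4090 to 27830 FPKM in homozygotes and 53760 to 77770 in wild types, and 1 of them, Sgs8, fell (−2.52, SE 0.72, adjusted p = 0.0441). The Sgs8 call was lost without any one heterozygote or wild type (up to 0.115), with no filter (0.0597) and with only the 2 genotypes fitted (0.106). The log2 fold change of Sgs8 was −1.55 without homozygote 1. The part of blood cell, fat body and salivary gland content in the changes of the 10 genes was not tested.

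Beyond the 10 genes, other basement membrane proteins moved in both directions. Of 8 listed genes 7 were tested, 3 rose and 1 fell in the homozygotes (median 0.16), where 12.3% of all tested loci rose and 9.67% fell. Ppn, which encodes the matrix protein papilin, was at 104.1, 55.8 and 80.9 FPKM in homozygotes and 21.8, 30.0 and 20.0 in wild types (1.68, SE 0.23, limma adjusted p = 0.00339). The other laminin alpha chain gene, wb, was weak, at 4.12, 4.998 and 4.52 FPKM in homozygotes and 2.24, 1.59 and 3.17 in wild types, and rose by 0.76 (SE 0.18, adjusted p = 0.0256). Mp, the fly's collagen XV and XVIII relative, rose by 0.54 (SE 0.13, adjusted p = 0.0282). Peroxidasin, the enzyme that cross-links collagen IV, fell: the locus of Pxn, shared with CR45660, was at 16.8, 25.6 and 20.7 FPKM in homozygotes and 32.5, 46.7 and 34.2 in wild types (−0.82, SE 0.21, adjusted p = 0.0334). The call of wb was lost without homozygote 3 or wild type 1 (adjusted p up to 0.0799), that of Mp without homozygote 3, heterozygote 3, wild type 1 or wild type 3 (up to 0.0631), and that of Pxn without homozygote 1 or 3, heterozygote 2 or any wild type (up to 0.0955). With only the 2 genotypes fitted the adjusted p was 0.0807 for wb, 0.0840 for Mp and 0.0763 for Pxn.

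Among 9 matrix proteases and their regulators 8 were found and 7 tested; 2 rose and 0 fell (median 0.25; 12.3% of all tested loci rose). With Mmp1 rose Meltrin, an ADAM family membrane protease gene, at 49.8, 52.5 and 47.4 FPKM in homozygotes and 12.7, 16.5 and 14.0 in wild types (1.73, SE 0.10, limma adjusted p = 7.85e-05). Both calls held without each of the 9 libraries. Reck, whose vertebrate relative inhibits metalloproteinases, was at 1.91 ± 0.36 FPKM in homozygotes and 2.58 ± 0.25 in wild types (SD, n = 3 each) and did not pass (−0.30, adjusted p = 0.121).

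Of 16 genes for the machinery that modifies and exports collagen, 2 rose and 0 fell in the homozygotes (median 0.07), a share near the 12.3% of all tested loci that rose. The prolyl hydroxylase PH4alphaEFB (0.09, limma adjusted p = 0.591), the lysyl hydroxylase Plod (0.28, adjusted p = 0.255) and the collagen export factor Tango1 (−0.03, adjusted p = 0.829) did not pass. Those that rose were Rab10 (0.51, SE 0.11, adjusted p = 0.0172) and Rab8 (0.31, SE 0.08, adjusted p = 0.0405), small GTPases that direct basement membrane secretion in fly epithelia. After quantile normalization neither passed (Rab10 0.109, Rab8 0.576). Rab10 was also lost without homozygote 3, wild type 1 or wild type 3 (adjusted p up to 0.0692), and Rab8 without any one library other than homozygote 1 (up to 0.114).

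Of 13 receptors for the matrix 7 rose and 0 fell (median 0.56; 12.3% of all tested loci rose). The integrin alpha subunits ItgalphaPS4 (5.48, SE 0.39, limma adjusted p = 0.000183) and ItgalphaPS5 (3.02, SE 0.26, adjusted p = 0.000468) and the beta subunits mys (1.58, SE 0.11, adjusted p = 0.000168) and Itgbetanu (1.74, SE 0.13, adjusted p = 0.000208) had the largest changes. In wild types ItgalphaPS4 was at only 2.26, 3.24 and 0.341 FPKM and ItgalphaPS5 at 0.9185, 1.20 and 0.769. The ItgalphaPS4 change ran from 4.16 to 6.28 over the alternatives other than leaving out a library. The laminin-binding subunit gene mew, on a locus shared with CG15742, rose by 0.74 (SE 0.10, adjusted p = 0.00359), while dystroglycan (Dg, −0.04, adjusted p = 0.836) and syndecan (Sdc, 0.09, adjusted p = 0.664) did not pass. Of these, mys and ItgalphaPS4 also count among the lamellocyte markers above. In the heterozygotes none of the genes of these 4 lists passed. Meltrin, at 22.3, 19.9 and 21.4 FPKM in heterozygotes, lay above every wild type (0.53, SE 0.10, limma adjusted p = 0.186), as 8.25% of the tested loci did. The receptor gene Lar lay below every wild type (−0.09, adjusted p = 0.835), as 6.18% did.

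**Figure D5:**
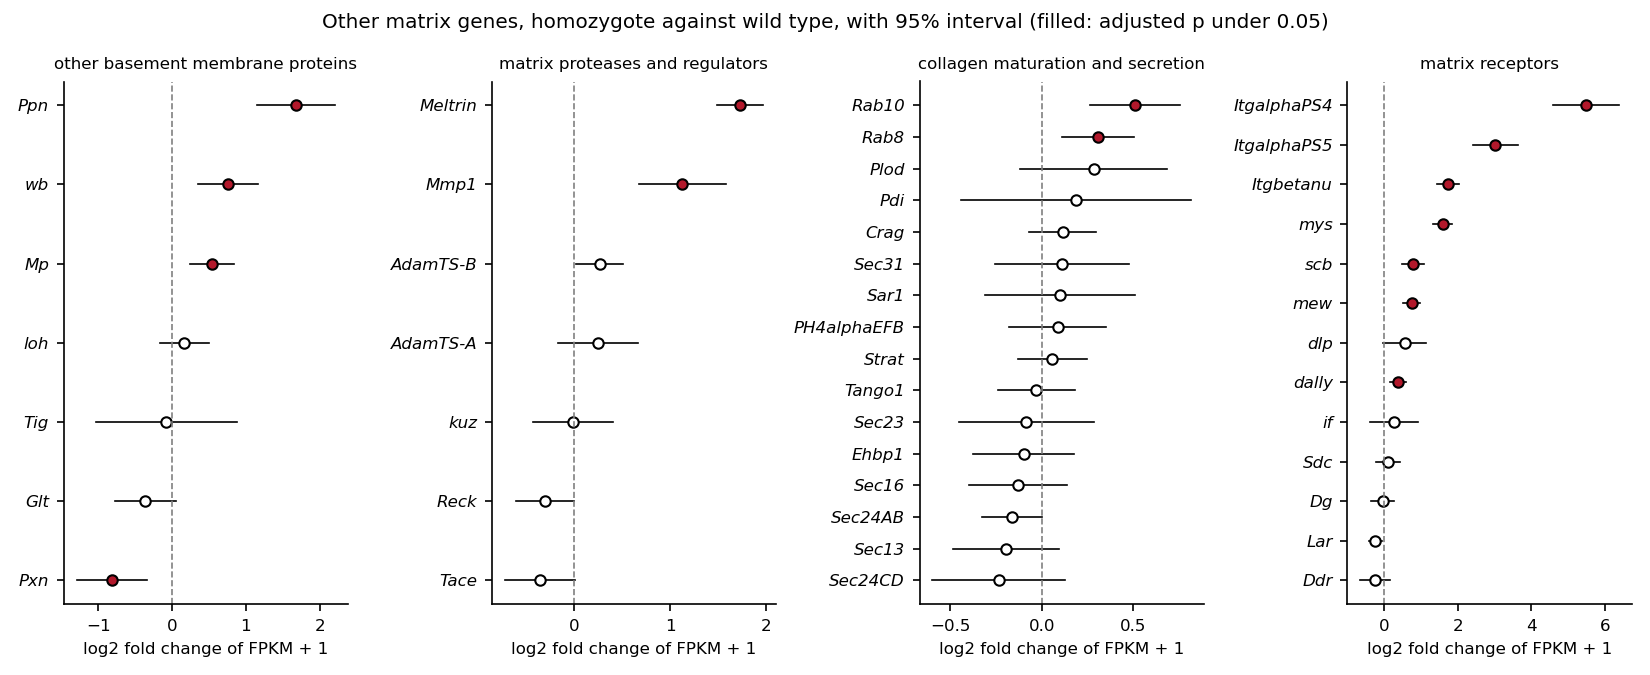
Log2 fold change of FPKM + 1, homozygote against wild type, with 95% intervals for the tested genes of 4 lists; filled points have a limma adjusted p under 0.05. Filled points lie to the right of 0 except for Pxn, and the horizontal scale differs between panels, reaching 5.48 for ItgalphaPS4.

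Genes whose level over the 9 libraries was most like that of each of the 10 were ranked by Pearson r of log2(FPKM + 1) among tested loci at a mean of 5 FPKM or more; the libraries share their genotypes, and the values are a description only. For Timp these were grau (0.987), Unc-13-4B (0.986) and Alas (0.985). For Ndg they were CG1444 (0.993), the locus CG33054/CG33056 (0.989) and CG9140 (0.989), and for Mmp2 they were Sep2 (0.985), CG15068 (0.980) and cib (0.976). SPARC was nearest to mRpS22 (0.988), LanB2 to capu (0.986), trol to Mtp (0.989), Cg25C to CG9065 (0.943), vkg to Ntf-2 (0.953), LanA to CG43273 (0.949) and LanB1 to Cpr57A (0.959).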

How the data were processed

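Whole-larva RNA was sequenced in 9 libraries, 3 per genotype. Per the labels, libraries were strand-specific and made from RNA extracted with a Qiagen kit. The authors deposited FPKM per locus and library; per the submitters' processing notes HISAT2 2.1.0, Cufflinks 2.2.1, limma and the build dm6 were used. Neither the annotation nor a strand setting is given in the sources used here. The table had 50244 lines, each repeated 3 times, and 1 line was kept for each of the 15809 loci. Loci at 1 FPKM or more in at least 3 libraries (10887) were fitted on log2(FPKM + 1) with limma 3.58.1 in R 4.3.3 (eBayes with trend, 3 genotypes together). Intervals use limma's SE and degrees of freedom. The limma fit was tested on simulated data. The simulated noise was independent for each locus and library, so that test does not cover deviations that the loci of a library share. Ratios between partner genes were compared by exact permutation over libraries. Depth is unknown from FPKM.

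The 10 genes and all lists (matrix genes, and markers of fat body, blood cells, muscle, glue, gut, disc and testis) were chosen with earlier results of these data known. Listed genes were named by a rule: up to 3 per list and direction with the smallest adjusted p among those that passed, or, with none, the most abundant. Others (PH4alphaEFB, Plod, Tango1, Reck, ItgalphaPS5, mew, Dg, Sdc, Lar, eater, crq, srp, ush, Lsp1alpha, Lsp1beta, Lsp2, Fbp2, apolpp) were chosen after their values were seen. Alternatives were quantile normalization and median-of-ratios scaling, a pseudocount of 0.1 or 5, a minimum of 5 FPKM or none, a replicate block, a fit of only the 2 genotypes compared, the repeated lines kept, and leaving out each library in turn. Sequences were not used here.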

Additional observations from a re-analysis of the deposited data

How the results depend on the processing

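Against the 1343 loci that rose in homozygotes over wild types, 750 rose with a replicate block and 550 with only the 2 genotypes fitted, and 583 to 1653 when 1 library was left out. The 1053 loci that fell became 216, 143 and 143 to 1674 in the same order. For heterozygotes over wild types 16 rose, with 8 under a replicate block, 8 with only the 2 genotypes fitted, and 8 to 21 when 1 library was left out. For homozygotes over heterozygotes 683 rose, with 442 after quantile normalization, 371 under a replicate block, 440 with only the 2 genotypes fitted, and 257 to 633 when 1 library was left out. Of the 10 genes, 4 passed for homozygote against wild type; 2 (Ndg and Timp) did after quantile normalization, 1 (Timp) under a replicate block, 1 (Timp) with only the 2 genotypes fitted, and 1 to 4 when 1 library was left out. Between homozygotes and heterozygotes 2 passed; 1 (Timp) did with no filter, after quantile normalization, under a replicate block and with only the 2 genotypes fitted, and 1 to 2 when 1 library was left out. Between heterozygotes and wild types 0 passed in each of the 18 alternatives, some of which change the fitted values little or not at all. With the replicate block the adjusted p against the wild type was 0.0673 for SPARC, 0.0868 for LanB2 and 0.0540 for Ndg; the calls of wb (0.0535), Mp (0.0677), Rab8, Fbp1, Sgs8 (0.0703), Amy-d and Mst84Da were also lost with it. Same-numbered libraries did not deviate together (r from −0.647 to 0.331). With 3 libraries a genotype, that check cannot decide whether they were collected or prepared together. Signs turned as follows, each for a change that did not pass the test. After quantile normalization they were −0.11 for Cg25C, −0.0038 for LanA, −0.16 for LanB1 and −0.15 for trol (homozygote against wild type), −0.017 for SPARC (heterozygote against wild type), −0.0193 for vkg and −0.0234 for LanB1 (homozygote against heterozygote), and −0.0736 for the log2 Cg25C to vkg ratio (heterozygote against wild type). With 1 library left out, homozygote against wild type ran from −0.13 to 0.30 for Cg25C, −0.0238 to 0.0803 for LanB1 and −0.0624 to 0.25 for trol. Heterozygote against wild type ran from −0.0115 to 0.17 for SPARC, −0.037 to 0.0118 for LanB2, −0.23 to 0.10 for Timp, −0.019 to 0.0208 for the Cg25C to vkg ratio and −0.60 to 0.0247 for the Mmp2 to Timp ratio. Homozygote against heterozygote ran from −0.30 to 0.13 for Cg25C and −0.0865 to 0.26 for vkg. The cause of these moves was not tested. Depth per library is unknown, so counting error cannot be given, and 3 libraries a genotype limit the precision.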

Other observations

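Other tissue markers were read in the same libraries. Of 8 tested testis markers 0 rose and 5 fell in homozygotes (9.67% of all tested loci fell), with sums over the list of 10 genes of 18.02 to 32.5 FPKM in homozygotes and 43.4 to 157.7 in wild types. Among them nht fell by 1.19 (SE 0.24, limma adjusted p = 0.0163) and sa by 1.45 (SE 0.31, adjusted p = 0.0183); both calls were lost without homozygote 3, wild type 1 or wild type 3 (nht up to 0.065, sa up to 0.0657), and sa also with only the 2 genotypes fitted (0.0533). Mst84Da fell by 2.04 (SE 0.55, adjusted p = 0.0395) and was at 13.1, 7.10 and 6.74 FPKM in homozygotes and 91.6, 17.1 and 35.3 in wild types. Its call was lost without any one library other than homozygote 1 or wild type 2 (up to 0.119), with pseudocount 5, with no filter and with only the 2 genotypes fitted. Of 8 gut markers 1 rose (12.3% of all tested loci rose), the amylase gene Amy-d, at 89.5, 98.9 and 122.9 FPKM in homozygotes and 15.4, 74.1 and 15.9 in wild types (1.92, SE 0.54, limma adjusted p = 0.0429). The Amy-d call was lost without any one library other than wild type 2 (up to 0.126), with no filter, after quantile normalization and with only the 2 genotypes fitted (0.102). None of the 4 crystal cell markers or 8 imaginal disc markers passed; the most abundant were PPO2 (0.23, adjusted p = 0.714) and ap (−0.10, adjusted p = 0.580).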
